A study of Homo sapiens with 24 samples.

Results

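The genes described here are 10 heat shock proteins and cochaperones: HSPA1A, HSPA1B, HSPA8, HSPH1, DNAJB1, BAG3, HSP90AA1, HSPB1, HSPD1 and HSPE1. They were found in the table of gene counts by matching its Ensembl identifiers to the GENCODE annotation of hg19, and all 10 were among its 20345 identifiers. The labels give the cells of every library as A2058, a human melanoma cell line, although one passage of the study names another melanoma line for these data. Cells were transfected with a scrambled siRNA (siCTRL) or, at 20 nM, an siRNA against LSM14A (siLSM14A), and were left untreated (NT) or exposed to hydroxyurea (HU), an inhibitor of ribonucleotide reductase that stalls replication, at 10 mM for 2 h. LSM14A is an RNA-binding protein of cytoplasmic granules. Each of the 4 conditions had 3 replicates, each with a total RNA library and a polysomal RNA library, 24 in all. Total and polysomal libraries of one condition and replicate number were taken as one culture, which rests on the shared number. All cells received cycloheximide before collection, which holds ribosomes on mRNA, and one cell line stands for melanoma here.

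Heat shock proteins are molecular chaperones that help other proteins to fold, keep damaged proteins from clumping and pass them on for refolding or degradation. HSP70 proteins bind exposed stretches of unfolded proteins in an ATP cycle, J-domain proteins bring them substrates and start ATP hydrolysis, and nucleotide exchange factors release ADP. HSP90 proteins finish the folding of kinases and receptors, small heat shock proteins hold unfolded proteins without ATP, and HSP60 with HSP10 forms the folding chamber of mitochondria. The heat shock factor HSF1 raises transcription of many of these genes by binding heat shock elements, which are repeats of the unit GAA in alternating orientation. The comparisons below ask whether HU or loss of LSM14A changed the amount of these mRNAs, and whether it changed their share on polysomes.

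The 12 total RNA libraries held 24789280 to 40645263 counts and the 12 polysomal libraries 28776634 to 44897501. LSM14A fell from 80.9 to 91.0 CPM (CPM being the count of a gene scaled by the TMM-adjusted library size) in the siCTRL total RNA libraries to 6.14 to 8.31 CPM in the siLSM14A libraries. All 8 melanocyte lineage markers, among them SOX10 at 550 to 666 CPM, were above 1 CPM in total RNA by their median. So were 6 of 8 neural crest or dedifferentiated melanoma markers, 5 of 7 fibroblast, 3 of 7 epithelial and 1 of 6 leukocyte markers. Mitochondrially encoded mRNAs, which are not translated in the cytoplasm, made up 6.82 to 8.84% of total RNA counts and 0.628 to 1.95% of polysomal counts. Polysomal libraries also differed from each other in GC content. The Spearman correlation between each gene's deviation from its mean and exon GC content ran from -0.75 to 0.60 among the polysomal libraries and from -0.52 to 0.39 among the total RNA libraries. In bulk libraries, less mRNA per cell and fewer cells holding it cannot be told apart.

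Total RNA of the 10 genes covered a wide range of levels. Per kilobase of the canonical transcript, the order of the medians over the 12 total RNA libraries was HSP90AA1 (1219 CPM per kb), HSPA8 (1089), HSPD1 (389), HSPB1 (233), DNAJB1 (83.8), HSPH1 (64.8), BAG3 (43.9), HSPE1 (22.5), HSPA1B (0.111) and HSPA1A (0.101). The ranges of HSP90AA1 (1103 to 1312) and HSPA8 (960 to 1154) overlapped, as did those of HSPE1 (15.7 to 41.5) and BAG3 (36.8 to 48.3) and those of HSPA1B and HSPA1A. Neighbours from HSPA8 down to BAG3 did not overlap. HSPE1, HSPA1B and HSPA1A share sequence with other genes, so their places in this order are uncertain. In HSPA1B, 36.6% of the bases of the canonical transcript lie in exons of another gene. The constitutive HSP90AB1 lay at 871 CPM per kb and the endoplasmic reticulum HSP70, HSPA5, at 334 CPM per kb.

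HSPA8 (HSC70; hg19 chr11:122928197-122933938, minus strand) encodes the constitutive cytosolic HSP70, and HSP90AA1 (HSP90 alpha; chr14:102547079-102606036, minus strand) the stress-responsive HSP90. Both are abundant and heat shock elements are described in genes of this class, so the RefSeq stretches before a start site are shown for these and for DNAJB1. Capitals mark matches on either strand to alternating units, either 3 (GAANNTTCNNGAA or its reverse complement TTCNNGAANNTTC) or 2 (GAANNTTC or TTCNNGAA, which lie inside the longer form).
HSPA8 (GRCh38.p14 chr11:123062137-123062386, minus strand): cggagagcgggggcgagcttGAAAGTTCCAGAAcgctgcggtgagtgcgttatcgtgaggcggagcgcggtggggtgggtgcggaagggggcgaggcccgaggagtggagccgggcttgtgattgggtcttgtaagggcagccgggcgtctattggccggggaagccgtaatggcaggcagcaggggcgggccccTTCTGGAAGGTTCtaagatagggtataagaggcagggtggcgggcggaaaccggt
HSP90AA1 (GRCh38.p14 chr14:102087045-102087164, minus strand): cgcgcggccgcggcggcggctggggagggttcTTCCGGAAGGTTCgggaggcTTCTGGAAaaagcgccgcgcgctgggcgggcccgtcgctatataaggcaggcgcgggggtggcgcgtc
DNAJB1 (GRCh38.p14 chr19:14518398-14518497, minus strand): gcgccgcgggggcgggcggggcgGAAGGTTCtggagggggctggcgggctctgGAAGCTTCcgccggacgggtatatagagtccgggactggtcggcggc
All 10 genes matched the RefSeq promoter table by symbol, with 14 entries in all because DNAJB1 has 3 and HSP90AA1 and HSPD1 have 2 each. The motif with 3 units occurred in the 250 bases before the start in 3 of the 14 entries, of HSPA8, HSP90AA1 and HSPD1, and in 0.441% of all 35116 entries. For HSPD1 it lies before the second entry (start at chr2:197499840, minus strand). That place is downstream of the start of the first entry (chr2:197500274), which has no match. The form with 2 units occurred in 7 of the 14 entries, a single entry for each of 7 genes, and in 11.6% of all entries. These are letter matches and say nothing of factor binding in these cells.

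HU left the total RNA of DNAJB1, HSPH1, HSP90AA1, HSPA8, HSPB1, BAG3 and HSPD1 close to the untreated level in siCTRL cells. The 95% intervals of HSPE1 and of the sum of HSPA1A and HSPA1B were wider and leave room for larger changes. HSPA8 was at 2502, 2303 and 2347 CPM in the siCTRL NT libraries and at 2558, 2173 and 2613 CPM under HU. The groups overlapped, with a log2 change of 0.04 (SE 0.0683). HSP90AA1 was at 3888, 3807 and 3561 CPM without HU and at 3911, 4028 and 3961 CPM with it. Its groups did not overlap, with a log2 change of 0.08 (95% interval -0.03 to 0.19, edgeR adjusted p of 1). DNAJB1 (chr19:14625581-14671203, minus strand), the main J-domain partner of the inducible HSP70s, was at 172, 180 and 178 CPM without HU and at 194, 179 and 198 CPM with it. BAG3 (chr10:121410892-121437331, plus strand), a nucleotide exchange factor that links HSP70 to selective autophagy, was at 94.2, 108 and 107 CPM and then at 116, 105 and 113 CPM. DNAJB1 and BAG3, which respond to heat shock in many cells, changed by 0.11 on the log2 scale each, with standard errors of 0.0554 and 0.0648 and upper 95% bounds of 0.23 and 0.25. No member was called (adjusted p below 0.05 in edgeR's quasi-likelihood test), beside 0% of the 12506 genes tested. At an unadjusted p below 0.05, 0 of the 9 members tested and 180 of all genes passed, and DESeq2 called 0 members and 1 gene.

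In siLSM14A cells, HU also called no member in total RNA (0% of 12497 genes called, 650 at an unadjusted p below 0.05, 0 by DESeq2). HSPH1 (HSP110; chr13:31709110-31736525, minus strand), an HSP70-related exchange factor, was at 381, 338 and 377 CPM without HU and at 299, 309 and 378 CPM with it. The third HU culture lay inside the untreated range, and the log2 change was -0.16 (SE 0.0844). The stress-inducible HSPA6 lay between 1.72 and 2.82 CPM in all 12 total RNA libraries. HSPA1A (chr6:31783320-31785723) and HSPA1B (chr6:31795515-31798031), both on the plus strand, encode nearly the same protein, and 72.4% and 72.8% of their 100-base windows occur in transcripts of another gene. How reads that match both were counted is not given in the sources used here, so their levels are uncertain. HSPA1A held 3 to 15 counts in each total RNA library and HSPA1B 2 to 21. Their sum was at 0.466, 0.399 and 0.472 CPM in siCTRL NT total RNA and at 0.518, 0.665 and 0.707 CPM under HU. These ranges did not overlap, with a log2 change of 0.53 (95% interval -0.11 to 1.16, edgeR adjusted p of 1). In siLSM14A cells the same sum was at 0.751, 0.679 and 0.239 CPM without HU and at 0.332, 0.394 and 0.556 CPM with it, and the ranges overlapped.

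**Figure D1:**
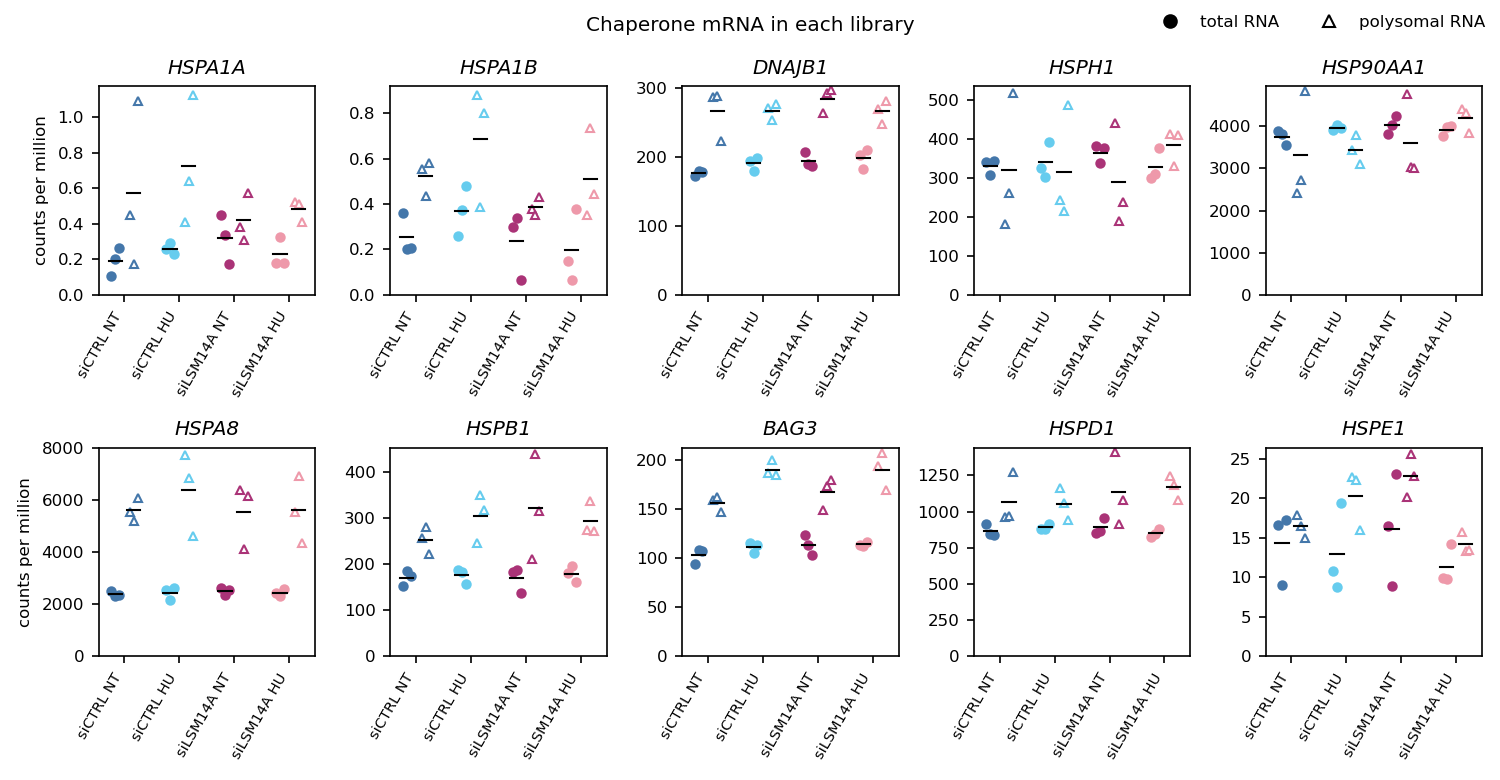
CPM of the 10 genes in each library, with a panel for each gene and the vertical axis starting at 0. Filled circles are total RNA, open triangles polysomal RNA, black bars the mean of 3 cultures. Total RNA of HSPA8 stays between 2173 and 2613 CPM while its polysomal RNA lies between 4113 and 7751 CPM.

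Knockdown of LSM14A likewise called none of the 10 genes in total RNA. The background was 0.566% of 12544 genes called in NT cells and 0.802% of 12475 genes under HU, and 0 of the 9 members tested were called in either by edgeR or by DESeq2. DNAJB1 came closest in NT cells. It was at 172, 180 and 178 CPM in siCTRL and at 206, 190 and 186 CPM in siLSM14A libraries, which did not overlap. The log2 change was 0.14 (SE 0.0556, unadjusted p of 0.0329 from edgeR's model, adjusted p of 0.41), and under HU it was 0.05 (SE 0.0644). Over 7 of the genes (DNAJB1, HSPH1, HSP90AA1, HSPA8, HSPB1, BAG3 and HSPD1) and the 4 comparisons of total RNA, log2 changes ran from -0.16 to 0.14 and the outermost 95% bounds were -0.34 and 0.31. With HSPE1 added, changes ran from -0.51 to 0.19, both ends being those of HSPE1, and the outermost bounds were -1.07 and 0.87. Blocking on the culture number, which pairs the cultures under HU, raised the called genes from 100 to 865 for siLSM14A against siCTRL under HU, and 0 members were among them. The interaction of HU and siRNA called 0% of 12666 genes in total RNA, with 367 genes and 0 members at an unadjusted p below 0.05 and 0 genes by DESeq2.

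Among 111 other chaperone genes, in lists of other HSP70 and HSP110, HSP90, J-domain and small heat shock proteins, cochaperones, chaperonins, mitochondrial chaperones and heat shock regulators, AHSA1 was the only one that edgeR's models of the compared conditions called in any of the 15 comparisons between conditions. Over all genes, siLSM14A against siCTRL called 0.566% in NT cells and 0.802% under HU in total RNA. The AHSA1 calls among these lists are near those shares. AHSA1 encodes the cochaperone that activates the ATPase of HSP90. It was at 297, 316 and 296 CPM in siCTRL NT total RNA and at 247, 229 and 216 CPM in siLSM14A NT. Under HU it was at 327, 307 and 303 CPM in siCTRL and at 232, 243 and 231 CPM in siLSM14A. Every siLSM14A library lay below every siCTRL library. The log2 change was -0.39 in NT cells (SE 0.0606, edgeR adjusted p of 0.0164) and -0.42 under HU (SE 0.0517, adjusted p of 0.00169). Both calls were lost with all 24 libraries in one fit, with changes of -0.39 and -0.41 and edgeR adjusted p of 0.285 and 0.313. The NT call was also lost without siCTRL replicate 2 (-0.36, adjusted p of 0.0812), without siCTRL replicate 3 (-0.41, adjusted p of 0.108) and without siLSM14A replicate 2 (-0.39, adjusted p of 0.0937). In polysomal RNA the AHSA1 change was -0.23 in NT cells and -0.53 under HU, with edgeR adjusted p of 1 and 0.739. The change under HU was called with all 24 libraries in one fit (-0.53, edgeR adjusted p of 0.0169). STIP1 (HOP), which carries substrates from HSP70 to HSP90, was not called in total RNA, and neither was HSP90AB1.

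No member was called in any comparison of polysomal RNA. The standard deviation over the 12 polysomal libraries, on the log2 scale, was larger than that over the 12 total RNA libraries for 8 of the 10 genes and smaller for HSPE1 (0.32 against 0.50) and HSPA1B (0.42 against 0.70). HSPH1 varied most of the well-counted members. It was at 181, 262 and 519 CPM in siCTRL NT polysomal RNA, at 244, 216 and 488 CPM in siCTRL HU, at 440, 188 and 238 CPM in siLSM14A NT and at 412, 330 and 411 CPM in siLSM14A HU. Each of the first 3 conditions had 1 culture far above the other 2. HSP90AA1 showed the same cultures high in the NT conditions, with 2412, 2727 and 4833 CPM in siCTRL NT and 4756, 3032 and 3004 CPM in siLSM14A NT. In siCTRL HU it was at 3426, 3802 and 3098 CPM and in siLSM14A HU at 4397, 4307 and 3848 CPM, which did not overlap. The cultures with high HSPH1 in NT cells were also the NT libraries that leaned most to low GC content (Spearman -0.68 and -0.75), and HSPH1 has the lowest exon GC content of the 10 genes (38.1%). The high culture of siCTRL HU, replicate 3, did not lean to low GC content (Spearman 0.13, beside 0.32 and 0.60 in replicates 1 and 2). Over the 12 polysomal libraries the Pearson correlation between HSPH1 level and the library's GC lean was -0.76, a description of libraries that also share depth and preparation. DNAJB1, in contrast, had a standard deviation of 0.12 on the log2 scale over the same libraries, at percentile 3.81 of all genes, against 0.55 for HSPH1, at percentile 91.0. With a curve of level against exon GC content taken out of each library, these standard deviations were 0.16 for DNAJB1 and 0.39 for HSPH1. The cause of the HSPH1 spread was not tested.

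Log2 changes of the 7 genes named above ran from -0.19 to 0.41 over the 4 polysomal comparisons, with outermost 95% bounds of -1.02 and 1.02. The background was 0% of 12315 genes for HU in siCTRL cells and 0% of 12290 genes for HU in siLSM14A cells, with 259 and 107 genes at an unadjusted p below 0.05 and 0 by DESeq2 in both. For siLSM14A against siCTRL it was 0.0162% of 12342 genes in NT cells and 0.0653% of 12256 genes under HU. The interaction called 0% of 12515 genes (134 at an unadjusted p below 0.05, 0 by DESeq2). BAG3 was at 159, 162 and 147 CPM in siCTRL NT and at 186, 200 and 185 CPM in siCTRL HU polysomal RNA. These groups did not overlap, and the log2 change was 0.28 (SE 0.147, edgeR adjusted p of 0.933).

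HSPE1 (HSP10; chr2:198364864-198368173, plus strand), the lid of the mitochondrial folding chamber, differed most in polysomal RNA without passing the threshold. It was at 17.9, 16.5 and 15.004 CPM in siCTRL NT, at 22.7, 22.3 and 16.02 CPM in siCTRL HU, at 20.1, 25.6 and 22.8 CPM in siLSM14A NT and at 15.8, 13.3 and 13.4 CPM in siLSM14A HU. The siLSM14A HU cultures lay below every culture of both comparator groups. The log2 change with HU was -0.69 in siLSM14A cells (SE 0.176, unadjusted p of 0.00265 in edgeR's model, adjusted p of 1) and 0.30 in siCTRL cells (SE 0.198). The interaction was -0.96 (SE 0.246, unadjusted p of 0.00156 in edgeR's model, adjusted p of 0.954), and over 21 alternatives it ran from -1.11 to -0.86 with 0 calls. For siLSM14A against siCTRL, HSPE1 changed by 0.46 in NT cells and by -0.51 under HU, with edgeR adjusted p of 1 and 0.739.

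HSPE1 counts call for caution. In the canonical transcript, 34.5% of bases lie in exons of the read-through gene HSPE1-MOB4, which held 0 counts in all 24 libraries, and 31.7% of its 100-base windows occur in transcripts of HSPE1-MOB4 or of HSPE1 pseudogenes. The level of 22.5 CPM per kb compares with 389 for HSPD1 (HSP60; chr2:198351308-198381461, minus strand), the chamber's ring, which is transcribed in the opposite direction from a start nearby. The 104 bases between these start sites in RefSeq, with no heat shock element match, are shown because the pair share them.
HSPD1 to HSPE1 (GRCh38.p14 chr2:197500275-197500378, plus strand): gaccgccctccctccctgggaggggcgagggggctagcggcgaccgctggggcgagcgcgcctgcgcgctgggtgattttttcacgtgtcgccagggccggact
In total RNA, HSPE1 was lowest in replicate 2 and highest in replicate 3 in all 4 conditions. The values were 16.7, 8.98 and 17.3 CPM in siCTRL NT, 10.8, 8.75 and 19.4 CPM in siCTRL HU, 16.5, 8.94 and 23.1 CPM in siLSM14A NT and 9.92, 9.82 and 14.2 CPM in siLSM14A HU. HSPD1 had no such pattern and stayed between 824 and 955 CPM in total RNA, a coefficient of variation of 4.36% against 35.3% for HSPE1.

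Counts of members whose 3 against 3 values did not overlap were near the share of all 12855 genes in most comparisons. In total RNA, 1 of 10 members did not overlap for HU in siCTRL cells (HSP90AA1) beside 5.45% of genes, and 0 for HU in siLSM14A cells beside 11.8%. For siLSM14A against siCTRL it was 1 member in NT cells (DNAJB1) beside 17.1% of genes, and 0 under HU beside 14.7%. In polysomal RNA it was 1 member for HU in siCTRL cells (BAG3) beside 7.54%, and 1 for HU in siLSM14A cells (HSPE1) beside 5.86%. For siLSM14A against siCTRL it was 2 in NT cells (HSPA1B and HSPE1) beside 6.63%, and 2 under HU (HSP90AA1 and HSPE1) beside 9.54%.

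**Figure D2:**
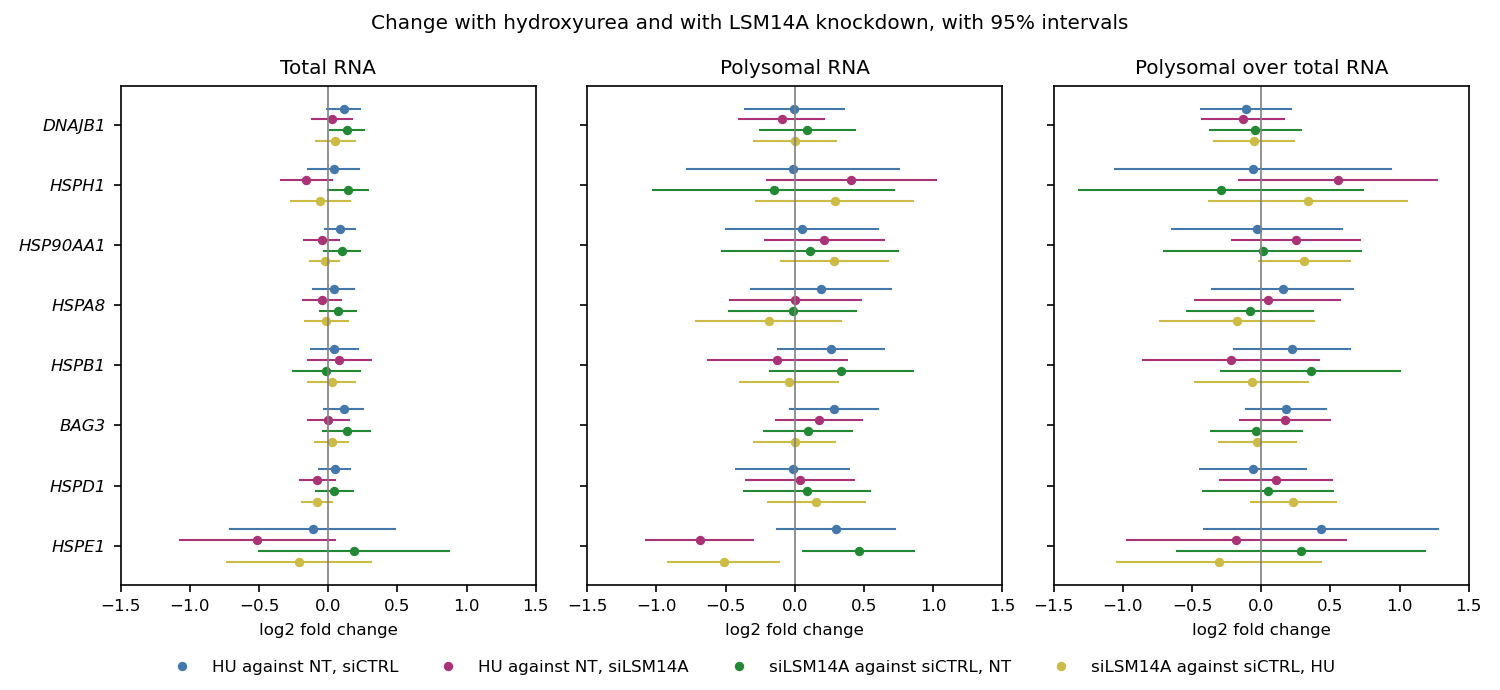
Log2 fold change (horizontal axis) of 8 genes with HU and with LSM14A knockdown in total RNA, polysomal RNA and their ratio. Points are edgeR estimates, lines 95% intervals, colours the 4 comparisons. Intervals in total RNA hold 0 for HU in siCTRL cells, where that of HSPE1 runs from -0.71 to 0.49, and intervals of HSPE1 in polysomal RNA lie off 0 in 3 comparisons, none of which was called.

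The polysomal share relative to total RNA (TE) was compared between conditions in one model over both kinds of library. No member was called, beside 0% of genes in each of the 5 tests (HU in siCTRL cells, 12693 genes; HU in siLSM14A cells, 12660; siLSM14A against siCTRL in NT cells, 12757, and under HU, 12649; interaction, 12855). At an unadjusted p below 0.05 there were 293, 179, 111, 487 and 244 genes in these tests and 0 members in each, and DESeq2 called 0 genes in all 5. The member with the smallest p was HSP90AA1 for siLSM14A against siCTRL under HU, with a log2 change in TE of 0.31 (95% interval -0.02 to 0.64, edgeR adjusted p of 0.778). HSPA8 changed by 0.15 with HU in siCTRL cells (interval -0.35 to 0.66) and by 0.05 in siLSM14A cells (interval -0.48 to 0.57). BAG3 changed by 0.18 and 0.17 in the same tests, with intervals that both held 0. The log2 ratio of polysomal to total CPM of DNAJB1 lay at 0.47, 0.50 and 0.48 in the siCTRL HU cultures and at 0.41, 0.44 and 0.42 in the siLSM14A HU cultures. It spread more widely without HU, from 0.33 to 0.74 in siCTRL NT and from 0.35 to 0.67 in siLSM14A NT.

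Within each condition, polysomal RNA was then compared with total RNA. This ratio is relative to the average mRNA of the libraries and depends on how the heavy fractions were collected. In siCTRL NT cells, 5 of 9 members tested were higher in polysomal RNA (HSPA1B, DNAJB1, HSPA8, HSPB1 and BAG3) and 0 were lower. All genes gave 63.8% called, with 31.4% higher and 32.3% lower. In siCTRL HU cells 6 of 10 were higher (HSPA1A, DNAJB1, HSPA8, HSPB1, BAG3 and HSPE1), beside 73.5% of genes called, 36.2% higher and 37.4% lower. In siLSM14A NT cells 4 of 10 were higher (DNAJB1, HSPA8, HSPB1 and BAG3), beside 64.4% called, 32.1% higher and 32.3% lower. In siLSM14A HU cells 6 of 10 were higher (HSPA1A, DNAJB1, HSPA8, HSPB1, BAG3 and HSPD1), beside 66.8% called, 32.8% higher and 34.1% lower. HSPA1B in siCTRL NT held 7 to 10 counts in total RNA and 15 to 22 in polysomal RNA. HSPA1A held 8 to 11 and 13 to 31 in siCTRL HU, and 6 to 10 and 12 to 18 in siLSM14A HU. In these conditions they met the minimum count of 10 through their polysomal libraries, so their calls as higher carry no weight. The counts of members higher in siCTRL NT, siCTRL HU and siLSM14A HU include them. DNAJB1, HSPA8, HSPB1 and BAG3 were called higher in each of the 4 conditions. The median log2 difference of all genes was -0.03, -0.05, -0.03 and -0.04.

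HSPA8 stood highest among the well-counted members. Its polysomal level was 5546, 5207 and 6089 CPM in siCTRL NT, 7751, 6851 and 4637 CPM in siCTRL HU, 6402, 4113 and 6182 CPM in siLSM14A NT and 5565, 6950 and 4346 CPM in siLSM14A HU. Every polysomal library lay above every total RNA library. The log2 difference was 1.23 (SE 0.119), 1.40 (SE 0.197), 1.18 (SE 0.171) and 1.20 (SE 0.154) in the 4 conditions, with edgeR adjusted p from 9.1e-05 to 0.000476. It was called under all 12 alternatives in each condition, which gave values from 0.99 to 1.64.

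The 2 cytosolic HSP90 mRNAs parted. HSP90AA1 was not called in any condition, with log2 differences of -0.18, -0.19, -0.14 and 0.09 (SE 0.242, 0.137, 0.179 and 0.0858). HSP90AB1, its constitutive relative, was at 2217, 2111 and 2127 CPM in siCTRL NT total RNA and at 5197, 4177 and 6171 CPM in polysomal RNA. Its log2 difference was 1.27, 1.55, 1.40 and 1.53 in the 4 conditions, called under all 12 alternatives in each. Within cultures, taken by replicate number, the log2 ratio of HSP90AB1 exceeded that of HSP90AA1 in 12 of 12, by 1.10 to 1.96 (median 1.55). HSPA8 exceeded DNAJB1 in 12 of 12 cultures, by a median of 0.69, and HSPH1 in 12 of 12, by a median of 1.46. It also exceeded HSPA4 in 12 of 12, by a median of 1.10. Other pairs were not uniform. HSPA8 exceeded the sum of HSPA1A and HSPA1B in 7 of 12 (median 0.08, range -0.80 to 1.28). HSPD1 exceeded HSPE1 in 6 of 12 (median 0.0079, range -1.44 to 0.80). HSPA5 was also higher in polysomal RNA in each condition, by 1.00 to 1.17 on the log2 scale, and was called under all 12 alternatives.

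**Figure D3:**
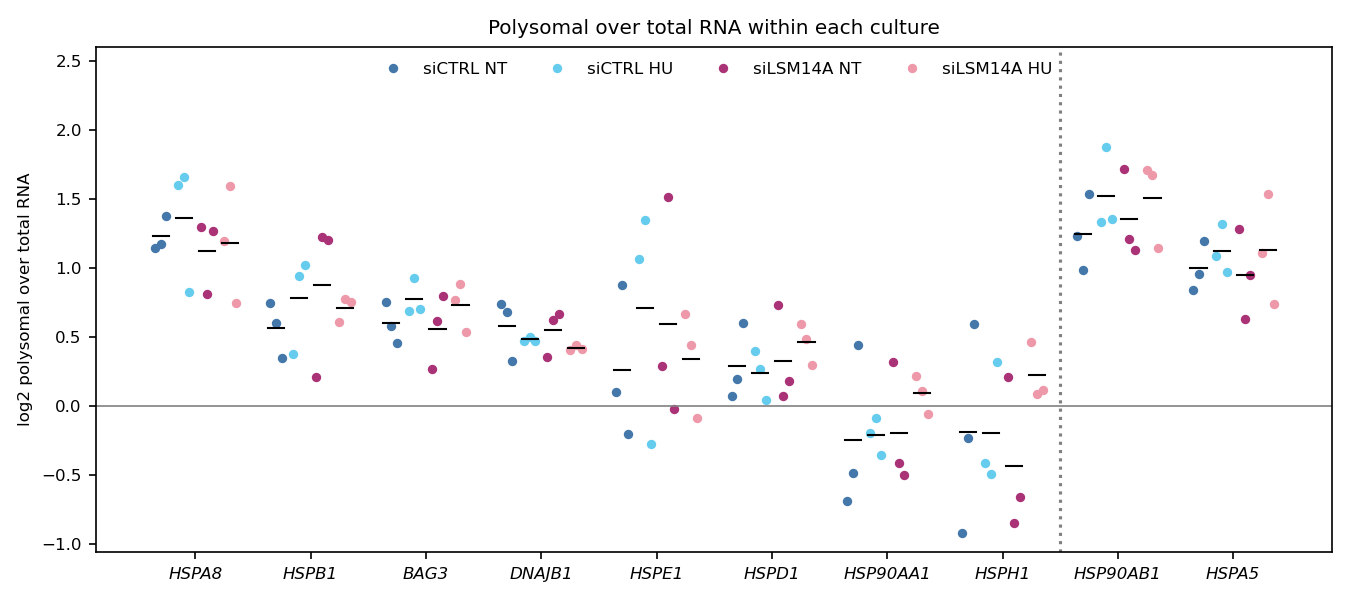
Log2 of polysomal over total CPM in each of the 12 cultures (points, coloured by condition) with the mean of each condition (black bars), for 8 of the genes and, right of the dotted line, HSP90AB1 and HSPA5. HSPA8, HSPB1, BAG3, DNAJB1 and HSPD1 lie above 0 in all 12 cultures, HSP90AA1 in 4 and HSPH1 in 6.

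HSPB1 (HSP27; chr7:75931990-75933612, plus strand), a small heat shock protein, was at 153, 184 and 174 CPM in siCTRL NT total RNA and at 257, 280 and 223 CPM in polysomal RNA. The groups did not overlap, and the log2 difference was 0.57 (SE 0.122, edgeR adjusted p of 0.00395). BAG3 differed by 0.59 (SE 0.103, adjusted p of 0.00152) and DNAJB1 by 0.59 (SE 0.12, adjusted p of 0.0031) in the same cells. HSPD1 was at 913, 844 and 839 CPM in total RNA and at 960, 967 and 1273 CPM in polysomal RNA, with a log2 difference of 0.30 (SE 0.134, adjusted p of 0.0791). The sum of HSPA1A and HSPA1B, 11 to 31 counts in total RNA and 17 to 53 in polysomal RNA, was higher in polysomal RNA in siCTRL NT (1.27), siCTRL HU (1.15) and siLSM14A HU (1.18) and was not called in siLSM14A NT (0.60). In siCTRL NT the call of HSPA1B alone was lost when replicates were blocked (1.04, edgeR adjusted p of 0.0523), with DESeq2 (1.08, adjusted p of 0.0934) and with all 24 libraries in one fit (1.06, adjusted p of 0.0655). The HSPA1A call in siLSM14A HU was lost with DESeq2 (1.13, adjusted p of 0.0618) and in that joint fit (1.10, adjusted p of 0.0857).

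GC content moved with these ratios. Over 12855 genes, which are not independent of each other, the Spearman correlation of the mean log2 ratio with exon GC content was 0.67. DNAJB1 (55.7% GC), BAG3 (56.5%) and HSPB1 (63.6%) are rich in GC, and HSPH1 (38.1%) and HSPD1 (42.3%) are not. After a GC curve was taken out of each library, which also takes out any real trend with GC, DNAJB1 went to 0.05, -0.16, 0.03 and -0.05 in the 4 conditions and HSPB1 to -0.16, -0.14, 0.10 and -0.01, with no call left for either. BAG3 went to 0.03, 0.08, 0.0018 and 0.21 and was called in siLSM14A HU only. HSPA1B lost its call in siCTRL NT (0.40, edgeR adjusted p of 0.425), as did HSPA1A in siCTRL HU (0.61, adjusted p of 0.282) and in siLSM14A HU (0.45, adjusted p of 0.319). The correction was not run on their sum. HSPH1 went to 0.58, 0.73, 0.36 and 0.82, called in all but siLSM14A NT, and HSPD1 to 0.72, 0.81, 0.82 and 0.89, called in all 4. HSP90AA1 was called in siLSM14A HU only (0.33). HSPE1 gained a call in siLSM14A HU (0.43, edgeR adjusted p of 0.0387). It also gained one in siLSM14A NT when replicates were blocked as well (0.69, edgeR adjusted p of 0.0327). HSPA8, at 49.3% GC, kept its call at 1.13, 1.31, 1.10 and 1.15. Single cultures also decided some values. Without siCTRL NT replicate 3, HSPH1 (-0.54) and HSP90AA1 (-0.57) were called lower in siCTRL NT, and without siLSM14A NT replicate 1 they were called lower in siLSM14A NT (-0.74 and -0.45). Without siCTRL HU replicate 3, HSPH1 was called lower in siCTRL HU (-0.43). Other genes gained calls as higher. In siCTRL HU these were HSPD1 without replicate 3 (0.35) and HSPA1B without replicate 2 (1.15). HSPD1 gained a call in siLSM14A NT without replicate 2 (0.50), and HSPE1 in siLSM14A HU without replicate 3 (0.57). HSPD1 also gained calls with all cultures kept. In siLSM14A NT these came with RLE size factors (0.40, edgeR adjusted p of 0.0457), DESeq2 (0.40, adjusted p of 0.035) and the joint fit (0.35, edgeR adjusted p of 0.0216). DESeq2 also called it in siCTRL HU (0.29, adjusted p of 0.0299), and the joint fit in siCTRL NT (0.30, edgeR adjusted p of 0.0468). Calls were also lost. In siCTRL NT, HSPA1B was not called without any 1 of the 3 replicates, and DNAJB1 was not called without replicate 2. In siCTRL HU, HSPE1 lost its call without replicate 1 and without replicate 2, and HSPA1A without replicate 3. The joint fit did not call HSPE1 in siCTRL HU either (0.64, edgeR adjusted p of 0.0542). In siLSM14A NT, HSPB1 lost it without replicate 2 and without replicate 3, and BAG3 without replicate 3. In siLSM14A HU, HSPA1A lost it without replicate 1 and without replicate 3, and DNAJB1 and HSPD1 without replicate 1. HSPA8 was called each time.

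**Figure D4:**
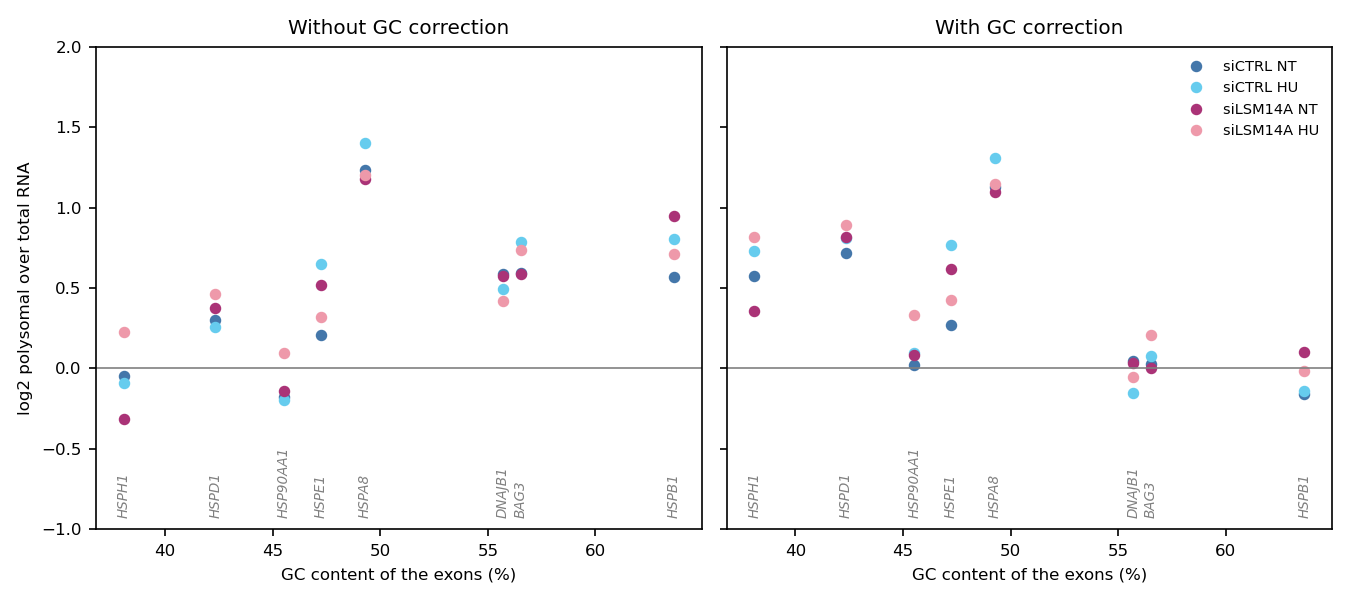
Log2 difference of polysomal against total RNA (vertical axis) by exon GC content (horizontal axis, percent) for 8 genes, without (left) and with (right) a GC curve removed from each library. Colours are the 4 conditions. HSPA8 stays above 1 in both panels, while HSPB1 lies between 0.57 and 0.95 on the left and between -0.16 and 0.10 on the right.

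The other chaperone lists, compared in the same way in siCTRL NT cells, held genes in both directions. The counts below stand beside 31.4% of all genes higher and 32.3% lower in these cells, and no list was tested against those shares. Of 10 other HSP70 and HSP110 genes tested, 5 were higher and 2 lower in polysomal RNA, with HYOU1 (1.41), a large chaperone of the endoplasmic reticulum, HSPA2 (0.94), HSPA5 (1.00) and the inducible HSPA6 (0.99) among the higher. Of 3 other HSP90 genes, HSP90AB1 (1.27) and the mitochondrial TRAP1 (1.31) were higher. Among 32 J-domain genes, 7 were higher and 16 lower, with DNAJB4 (-1.71), DNAJC24 (-1.55), DNAJB2 (0.91) and DNAJC19 (-0.99) at the smallest p. HSP70 cochaperones gave 4 higher and 5 lower of 11, with BAG6 (1.68), the exchange factors HSPBP1 (1.31) and SIL1 (1.30) and the ubiquitin ligase STUB1 (0.81) at the smallest p. Of 16 HSP90 cochaperones, 8 were higher, among them UNC45A (1.86), FKBP4 (1.03), FKBP8 (1.00) and STIP1 (0.77), and 5 were lower. Of 14 subunits of the chaperonin TRiC and its partner prefoldin, 6 were higher and 3 lower. The TRiC subunits CCT7 (1.46) and CCT3 (1.04) were among the higher, and PFDN4 (-1.34) and PFDN1 (-0.62) of prefoldin among the lower. These were named by their p, and a difference between TRiC and prefoldin was not tested. Mitochondrial chaperones and proteases gave 5 higher and 2 lower of 8, led by the protease LONP1 (1.32). Among 7 regulators, 3 were higher, HSF1 (0.43), DEDD2 (0.55) and IER5 (0.56), and the HSF1 inhibitor HSBP1 (-0.52) was lower. The 1 other small heat shock protein tested was not called. With the GC correction STIP1 was at 0.30 (edgeR adjusted p of 0.0109), HSP90AB1 at 1.18 and HSPA5 at 1.31, all called. It was not applied to the other genes of these lists.

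Levels of the 10 genes did not vary as one group. Over the 12 total RNA libraries the Pearson correlations of 28 pairs among the 8 genes other than HSPA1A and HSPA1B ran from -0.82 (HSPB1 and HSPE1) to 0.83 (HSPH1 and HSPE1), with a median of 0.16. Over the 12 polysomal libraries they ran from -0.76 (DNAJB1 and HSP90AA1) to 0.86 (HSP90AA1 and HSPD1), with a median of -0.03. These are descriptions over libraries that share cultures, depth and base composition. In total RNA, DNAJB1 correlated at 0.83 with BAG3. The genes of all 12854 others most like DNAJB1 in total RNA were PSME3IP1 (0.87), ZNF280A (0.85) and TMEM203 (0.85), and in polysomal RNA HOXC11 (0.85), ZNF575 (0.84) and TXNDC11 (0.84). Those most like HSPH1 were GNPDA2 (0.95), XPOT (0.92) and APPBP2 (0.92) in total RNA and EIF4G3 (0.98), FNDC3B (0.98) and TASOR2 (0.97) in polysomal RNA. For HSPD1 they were UACA (0.95), CD36 (0.92) and DEPDC1 (0.92) in total RNA and NOC3L (0.97), FASTKD2 (0.96) and GTPBP4 (0.95) in polysomal RNA. No other member was among these 18 places.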

How the data were processed

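RNA-seq libraries were analysed from total RNA and from polysomal RNA, the RNA in the heavy fractions of a sucrose gradient, of A2058 cells. Per the labels and the study's methods, polyadenylated RNA was selected, libraries were strand specific, and the authors aligned reads to hg19 with STAR (version 2.6.1a per the submitters' processing notes) and deposited raw counts per gene, neither normalised nor pooled. Whether a read that matched several places was counted is not given in the sources used here. The table holds 20345 gene IDs, of which 19086 are protein-coding and 708 were absent from the lifted GENCODE annotation that was matched. All 24 columns were used and each was assigned by its library name.

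Protein-coding genes were tested with edgeR 4.0.16 (R 4.3.3), using TMM size factors, filterByExpr (minimum count 10, minimum total 15), the quasi-likelihood F-test and Benjamini-Hochberg adjustment over all genes tested. A gene was called at an adjusted p below 0.05. Each model held a mean for each group and only the libraries of the conditions compared. TE denotes the difference between the polysomal and the total RNA change in one model over both kinds of library. The study's methods name Xtail for this step, which was not used here. CPM values used effective library sizes over all 24 libraries. DESeq2 1.42.0, other size factors, no count filter, all gene types, a joint fit, a GC curve per library (loess, span 0.3, exon GC content), a replicate block, each culture left out and the sum of HSPA1A and HSPA1B were alternatives. Scripts were tested on simulated data.

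The 10 genes and the other lists were chosen with earlier results of these data known. All 10 are named throughout. From the other lists, at most 4 genes called in a comparison, those with the smallest p, and 9 reference genes were eligible to be named. For DNAJB1, HSPH1 and HSPD1 the 3 genes with the highest Pearson correlation were listed. Total and polysomal libraries of one condition and number were taken as one culture, which the labels do not state. Their deviations from the group means correlated above 0.1 for all 3 numbers in siLSM14A HU only, and correlated at -0.31 and -0.23 for replicates 1 and 3 of siLSM14A NT. Between conditions, same-numbered libraries deviated together (every correlation above 0.1) in total RNA for HU against NT in siCTRL cells and for siLSM14A against siCTRL under HU, and in polysomal RNA for HU against NT in siCTRL cells. No pair of replicates agreed within sampling noise. Beyond the labelled replicate numbers, nothing here shows how separate the cultures were, so the p-values measure the spread between these samples.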

Additional observations from a re-analysis of the deposited data

How the results depend on the processing

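In the 15 comparisons between conditions, 0 members were called under every setting. For polysomal against total RNA, the calls in siCTRL NT went from 5 to 3 with the GC correction and to 3 with the replicate block and the GC correction, and ranged from 3 to 6 with a culture left out. In siLSM14A NT they went from 4 to 2 with the GC correction and ranged from 2 to 6 with a culture left out, and in siLSM14A HU from 3 to 6. Where the value was called in at least one of the fits compared, directions reversed with the GC correction, and with the replicate block and the GC correction, for HSPH1 (0.58 and 0.53) and HSPB1 (-0.16 and -0.16) in siCTRL NT, for DNAJB1 (-0.16 and -0.16), HSPH1 (0.73 and 0.67) and HSPB1 (-0.14 and -0.14) in siCTRL HU, and for DNAJB1 (-0.052 and -0.059) and HSPB1 (-0.014 and -0.0088) in siLSM14A HU. HSPH1 in siLSM14A NT also turned sign (0.36 and 0.33) and was not called in any of these fits. The cause was not tested. Of the members' log2 values under all settings, 2788 stayed on the same side of the threshold with no called value turning sign, 28 gained a call, 38 lost one and 14 turned sign with a call in one of the fits. The replicate block alone ended 1 call, that of HSPA1B in siCTRL NT (1.04), where HSPA1A passed the count filter and was called. HSPA1A held 3 to 9 counts in total RNA and 6 to 30 in polysomal RNA there, so this call carries no weight either.

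Over all genes, calls in total RNA for siLSM14A against siCTRL in NT cells went from 71 to 200 with DESeq2, 13 in the joint fit, 119 with the GC correction, 45 with the block, and 39 and 28 without siCTRL replicates 2 and 3 and 40 and 39 without siLSM14A replicates 1 and 2. Under HU they went from 100 to 189, 17, 159 and 865 in the same order, to 628 with block and GC correction, to 46 without siCTRL replicate 2 and to 59, 55 and 61 without siLSM14A replicates 1, 2 and 3. For HU in siCTRL cells they went from 0 to 1 with DESeq2, 15 with the block, 25 with block and GC correction and 6 without siCTRL NT replicate 1, and for HU in siLSM14A cells to 6 without siLSM14A NT replicate 3. In polysomal RNA they went from 2 to 8 with DESeq2, 4 with no filter, 27 in the joint fit and 5 with the GC correction in NT cells, and from 8 to 22, 29 in the joint fit, 40 with the block and 17 with block and GC correction under HU, where leaving out a culture gave 2 to 5 in the 4 cases that moved. Polysomal calls for HU went from 0 to 1 with the block and 2 without siCTRL NT replicate 1, and to 1 in siLSM14A cells without NT replicate 1. TE calls for HU in siLSM14A cells went from 0 to 16 without NT replicate 1. Polysomal against total RNA went from 7927 to 3654 without siCTRL NT replicate 2 and from 8067 to 5103 without siLSM14A NT replicate 3. HSPA1A and HSPA1B held 31 counts or fewer per library, which limits what their values can show.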
